A study of Mus musculus with 4 samples.

Results

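The genes of sterol and fatty acid synthesis were followed in mouse intestinal organoids before and after induced recombination of Apc. The set was a list of 32 genes, matched to the array by gene symbol: a probe set was taken where the platform's annotation gave it that symbol alone. Of the 32, 31 were measured, out of 18193 genes measured in all, and Acat2 is not analysed here. They comprised 15 measured sterol enzymes of 16 listed, 10 fatty acid enzymes, 5 regulators of the pathway and the sterol carrier gene Stard4. Where several probe sets read a gene, the brightest by its mean over the arrays gave the gene's value, and the others are given as a check. All 31 passed a level filter, which asked that the highest of a gene's 4 values reach 20.9, the median intensity over the whole table, and which 13192 genes passed in total.

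All organoids carried floxed Apc alleles (Apc fl/fl), and 4 arrays were made, 1 for each group: untreated at day 4, 4-hydroxytamoxifen (4OHT) at day 4, untreated at day 6 and 4OHT at day 6. The labels call the untreated organoids normal and the treated ones Apc-deficient; 4OHT was given for 24 h. The Cre driver, the gut segment, the strain, sex and age of the mice and the number of cultures behind each array are not in the labels. No array was of organoids given 4OHT without a floxed allele, so the drug and the recombination cannot be told apart. RNA came from whole organoids, in which fewer cells of a type and less RNA per cell cannot be told apart.

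Cholesterol is built from acetyl-CoA through mevalonate, isoprenoid diphosphates and squalene, and fatty acids are built from the same acetyl-CoA through malonyl-CoA. The transcription factors SREBP1 and SREBP2, encoded by Srebf1 and Srebf2, sit in the endoplasmic reticulum bound to Scap, which escorts them to the Golgi for cleavage when sterols are low. Insig1 and Insig2 hold them back when sterols are plentiful. SREBP2 is known mainly for sterol enzyme genes and SREBP1 mainly for fatty acid genes, and both work at promoters together with NF-Y and Sp1. In the intestine, absorptive enterocytes both make and take up sterols and assemble lipids for export.

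The promoters of the sterol enzymes shared letters that NF-Y and Sp1 are known to bind, and these are shown for the enzymes that fell with 4OHT and had an entry in the RefSeq promoter table (GRCm38.p6), with Hmgcs1 and Fasn beside them. Of the 32 genes, 25 had an entry. Fdps, Sqle and Scd1, which also fell, had none. Each window held the 250 bases before the annotated start, and 3 motifs were searched on both strands. The letters CCAAT stood for NF-Y. GGGCGG stood for Sp1, and TCACNCNAC for the sterol element. Each line runs from the outermost match to the innermost with up to 8 bases on each side, in the direction of the gene, with the matches in capitals (ATTGG and CCGCCC are matches on the other strand).

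Idi1: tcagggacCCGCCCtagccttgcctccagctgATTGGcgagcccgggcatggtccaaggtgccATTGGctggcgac
Lss: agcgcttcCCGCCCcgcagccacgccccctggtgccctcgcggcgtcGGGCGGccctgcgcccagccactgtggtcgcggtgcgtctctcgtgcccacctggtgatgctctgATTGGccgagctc
Cyp51: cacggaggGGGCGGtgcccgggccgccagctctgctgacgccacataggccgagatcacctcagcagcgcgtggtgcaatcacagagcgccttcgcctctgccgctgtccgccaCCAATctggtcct
Nsdhl: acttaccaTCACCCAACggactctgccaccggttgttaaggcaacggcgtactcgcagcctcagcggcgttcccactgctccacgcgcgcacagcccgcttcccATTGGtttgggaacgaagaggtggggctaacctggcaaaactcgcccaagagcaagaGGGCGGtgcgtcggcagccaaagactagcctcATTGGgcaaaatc
Ebp: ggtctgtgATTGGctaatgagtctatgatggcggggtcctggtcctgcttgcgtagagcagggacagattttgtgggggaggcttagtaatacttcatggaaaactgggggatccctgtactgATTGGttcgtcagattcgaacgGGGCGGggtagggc
Hmgcs1: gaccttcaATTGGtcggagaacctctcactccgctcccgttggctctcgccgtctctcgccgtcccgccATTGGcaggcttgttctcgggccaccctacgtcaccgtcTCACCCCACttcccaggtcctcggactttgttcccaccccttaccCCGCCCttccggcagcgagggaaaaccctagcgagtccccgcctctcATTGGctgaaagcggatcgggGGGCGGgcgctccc
Fasn: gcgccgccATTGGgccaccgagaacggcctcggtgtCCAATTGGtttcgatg

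The Idi1 stretch is at chr13:8885529-8885604 (plus strand), from 77 to 2 bases before the start. Lss lies at chr10:76531431-76531555 (plus), Cyp51 at chr5:4104714-4104840 (minus) and Nsdhl at chrX:72918308-72918513 (plus). Ebp lies at chrX:8193532-8193690 (minus), Hmgcs1 at chr13:119690106-119690340 (plus) and Fasn at chr11:120824594-120824645 (minus). All lie upstream of the annotated start of the gene. The sequences show that all 6 sterol promoters held both CCAAT and GGGCGG, whereas Fasn held 3 CCAAT matches, 2 of them overlapping on opposite strands, and no GGGCGG. The letters CCAAT occurred in 12 of the 13 sterol enzyme genes with an entry (92.3%), in 3 of 7 fatty acid enzyme genes (42.9%) and in 4 of 5 regulator genes (80%), against 37.5% of all 27025 genes with an entry and 33.8% of all 32851 windows. GGGCGG occurred in 12 of 13 sterol enzyme genes, 3 of 7 fatty acid enzyme genes and 5 of 5 regulator genes, against 35.4% of all genes and 32.7% of windows. TCACNCNAC was found in the promoters of Hmgcs1 and Nsdhl alone among the 25 genes and in 2.65% of all genes (2.26% of windows). Sterol enzymes that did not pass the test for 4OHT held the same letters. Mvk, with the smallest effect, had 5 CCAAT and 2 GGGCGG matches, and Mvd, Hsd17b7, Dhcr7 and Sc5d also held both. Pmvk held CCAAT alone. Acly, a fatty acid enzyme that did not pass, had 4 GGGCGG matches and no CCAAT. A match is a run of letters and does not show binding, and a link between the motifs and the fall was not tested.

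Values are probe-set intensities. Differences were taken after adding 16 and moving to log2, so changes of dim genes are understated. The difference between 4OHT and untreated on 1 day sets 1 array against 1 and has no test. The test was limma over the 4 arrays with 4OHT and day as terms, so that its error is how far the effects of the 2 days differ, pooled over genes. "Fell" and "rose" mark an adjusted p under 0.05 in that test. Nothing states that the 4 arrays came from separate cultures, so its p-values measure the spread between these arrays only.

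The arrays of 1 day had like medians (22.0 and 21.9 at day 4, 19.3 and 19.5 at day 6), and the scaling between the days is not stated. The 3'-to-5' signal difference, a sign of RNA integrity and labelling length, was larger on the 4OHT arrays: for Actb by 0.94 at day 4 and 0.62 at day 6, and for Gapdh by 0.87 and 0.56. The spiked hybridization controls had 4OHT minus untreated differences of -0.35 on the earlier day and 0.83 on the later. Apc itself was read by 4 probe sets whose place relative to the floxed exons is not known here, so they check nothing about the deletion. Its brightest, 1435543_at, had intensities of 27.2 and 57.7 at day 4 and 99.6 and 170 at day 6, untreated first, and none of the 3 tested passed (limma, lowest adjusted p 0.135). The Wnt target gene Axin2 rose (effect 0.82 ± 0.21 SE, limma adjusted p = 0.0399).

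With 4OHT, 8 of the 31 genes fell over both days, against 2.25% of all 13192 genes, and 0 rose, against 0.97% (limma; at an unadjusted p under 0.05, 15 were lower, against 7.47% of all genes, and 0 higher, against 6.44%). Those that fell were 7 of 15 sterol enzymes, namely Idi1, Fdps, Sqle, Lss, Cyp51, Nsdhl and Ebp, and 1 of 10 fatty acid enzymes, the desaturase gene Scd1. None of the 5 regulators passed (limma; 2 lower and 0 higher at an unadjusted p under 0.05, with the same 7.47% and 6.44% as background), and neither did Stard4. The count depends on the setting: 0 of 31 passed with a pseudocount of 1 or 64, with no level filter or with no term for day. Of the single calls, Sqle was also lost where all probe sets were averaged, without the less specific probe sets (_x_at and _s_at), after quantile normalization and with the level filter on the mean. Fdps and Lss were lost where all probe sets were averaged, and Nsdhl with the level filter on the mean. Calls gained were Hmgcs1 where all probe sets were averaged (effect -0.87, limma adjusted p = 0.0201), Mvd and Sc5d after median centring, and Mvd also where the brightest probe set was chosen by linear mean.

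**Figure D1:**
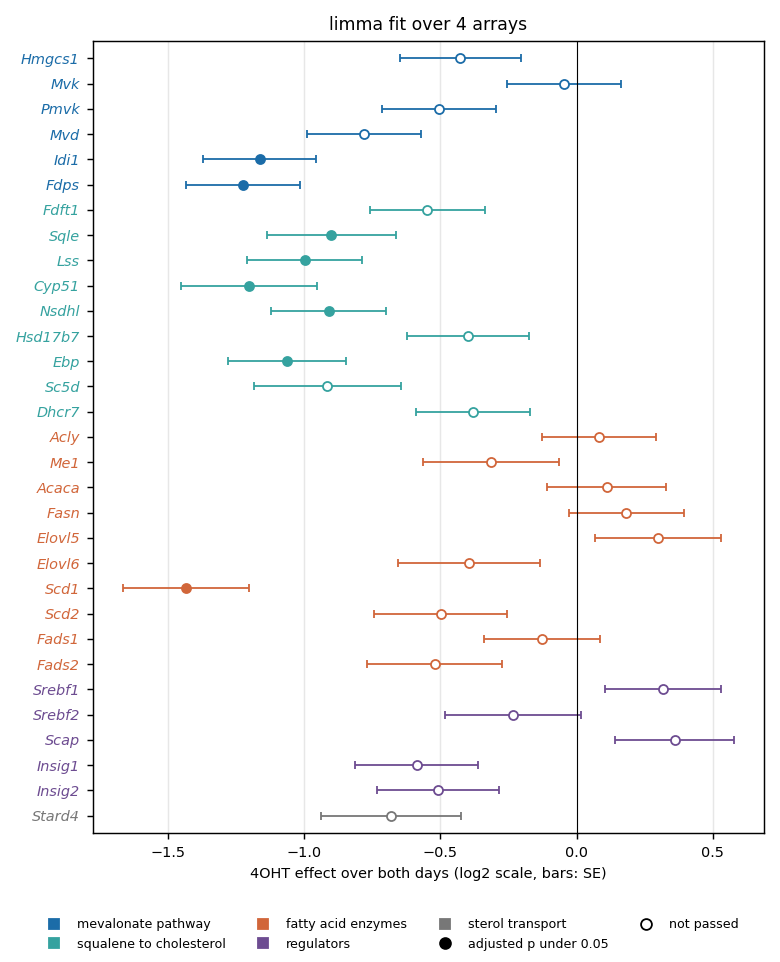
Effect of 4OHT over both days for the 31 measured genes, on the log2(intensity + 16) scale, from the limma fit over 4 arrays, with bars of 1 standard error; filled points have an adjusted p under 0.05. The 8 filled points lie left of 0, from -0.90 for Sqle to -1.43 for Scd1, and 25 of the 31 points lie below 0.

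In the mevalonate part of the pathway, the last steps had the largest differences with 4OHT by brightest probe sets; 3 further probe sets of Hmgcs1, the first measured step, differed by about as much. Idi1, the isomerase that interconverts the pathway's isoprenoid building blocks, read 677 in untreated and 288 in 4OHT organoids at day 4, and 1171 and 524 at day 6. Both 4OHT arrays lay below both untreated arrays, by 1.19 at day 4 and by 1.14 at day 6, and the gene fell by 1.16 ± 0.21 (SE; limma adjusted p = 0.00423). Fdps, which joins these blocks into farnesyl diphosphate, read 447 and 178 at day 4 and 722 and 307 at day 6. The 4OHT arrays were again the lowest of the 4, and Fdps fell by 1.22 ± 0.21 (limma adjusted p = 0.00288). With Scd1 they made the 3 of 31 genes that were at least 2-fold lower on both days, as were 0.796% of all genes. Ordered from the lowest difference at day 4, Fdps was number 62 and Idi1 number 82 of 13192 genes.

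The earlier mevalonate enzymes moved less or did not pass. Mvk, mevalonate kinase, had the smallest effect of the sterol enzymes and read 84.8, 86.9, 75.8 and 68.4 on the untreated and 4OHT arrays of day 4 and then of day 6 (effect -0.05 ± 0.21, limma adjusted p = 0.966). Its values in the 2 arms overlapped. Mvd, which decarboxylates mevalonate diphosphate, read 515, 308, 220 and 115 in the same order, lower with 4OHT by 0.71 and by 0.85, and just missed the threshold (effect -0.78 ± 0.21, limma adjusted p = 0.0528). Pmvk, the kinase before it, was lower by 0.58 and by 0.43 (effect -0.51 ± 0.21, limma adjusted p = 0.276). Hmgcs1, which makes HMG-CoA, gave different answers by probe set, described further on.

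From squalene to cholesterol, all 9 enzymes read lower with 4OHT on both days, and 5 fell. Sqle, squalene epoxidase and a rate-limiting step, read 132 and 92.9 at day 4 and 774 and 293 at day 6. Its difference was larger at day 6 (-1.35) than at day 4 (-0.45), and it passed narrowly (fell by 0.90 ± 0.24, limma adjusted p = 0.0489). Lss, which closes the ring to lanosterol, read 207 and 107 at day 4 and 372 and 161 at day 6, with both 4OHT arrays below both untreated arrays, and fell by 0.997 ± 0.21 (limma adjusted p = 0.0133). Cyp51, the lanosterol demethylase, read 208 and 126 and then 684 and 192, so that the untreated array of day 6 stood far above the other 3. It fell by 1.20 ± 0.25 (limma adjusted p = 0.0113).

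The next enzymes of the same branch followed. Nsdhl, a dehydrogenase of sterol demethylation, read 222 and 124 at day 4 and 400 and 185 at day 6, the 4OHT arrays being the lowest of the 4, and fell by 0.91 ± 0.21 (limma adjusted p = 0.0243). Ebp, the sterol isomerase, read 115 and 58.1 and then 439 and 168, lower with 4OHT on each day but higher at day 6 than at day 4 in both arms. It fell by 1.06 ± 0.22 (limma adjusted p = 0.0104). Sc5d, a sterol desaturase, had the widest gap between the days: 58.9 against 47.8 at day 4 and 361 against 108 at day 6, differences of -0.23 and -1.60, and it did not pass (effect -0.91 ± 0.27, limma adjusted p = 0.0857). Fdft1 (squalene synthase), Hsd17b7, a ketoreductase of sterol demethylation, and Dhcr7, the last reductase, had effects between -0.55 and -0.38 and did not pass. Dhcr7 had the smallest of the branch and read 112, 85.5, 203 and 147, untreated before 4OHT on each day.

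Among the 10 fatty acid enzymes, Scd1 stood apart by its brightest probe set. Scd1, which puts the first double bond into saturated fatty acids, read 186 and 82.4 at day 4 and 496 and 128 at day 6. The 4OHT arrays lay below the untreated array of either day, and Scd1 had the largest effect of all 31 genes (fell by 1.43 ± 0.23, limma adjusted p = 0.00171). At day 6 it was number 58 from the lowest of 13192 genes. The other probe set of Scd1, the dimmer 1415965_at, read 22.8, 16.4, 60.4 and 24.1, untreated before 4OHT on each day. It was lower with 4OHT by 0.26 and by 0.93 but did not pass (effect -0.59 ± 0.22, limma adjusted p = 0.302 among probe sets).

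No enzyme of the core of fatty acid synthesis passed (limma). Acly, which supplies cytosolic acetyl-CoA, had the smallest effect of the branch and read 750 and 752 at day 4 and 805 and 904 at day 6 (effect 0.08 ± 0.21, limma adjusted p = 0.929). Fasn, fatty acid synthase, read 637 and 796 at day 4 and 445 and 462 at day 6, with values in the 2 arms that overlap (effect 0.18 ± 0.21, limma adjusted p = 0.797). Acaca, which makes malonyl-CoA, read 136 and 180 and then 119 and 107. For Acly and Acaca the sign of the effect turned where all probe sets were averaged, so neither has a settled direction.

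By their brightest probe sets, the elongases and the other desaturases read lower with 4OHT at day 6 but not at day 4. Scd2, a second stearoyl-CoA desaturase, read 683 and 691 at day 4 and 4571 and 2256 at day 6. Fads2, which desaturates polyunsaturated fatty acids, read 69.7 and 71.5 and then 425 and 194. In both genes the untreated array of day 6 was well above the rest, and neither passed (limma adjusted p = 0.383 and 0.367). Elovl6, an elongase of saturated chains, read 80.4 and 98.2 and then 274 and 126. Elovl5, an elongase of polyunsaturated chains, read 200 and 335 and then 616 and 573, 0.70 higher with 4OHT at day 4 and 0.10 lower at day 6. Me1, a source of NADPH, read 107 and 130 and then 129 and 62.9, and Fads1, a further desaturase of polyunsaturated chains, differed by 0.06 and -0.31.

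**Figure D2:**
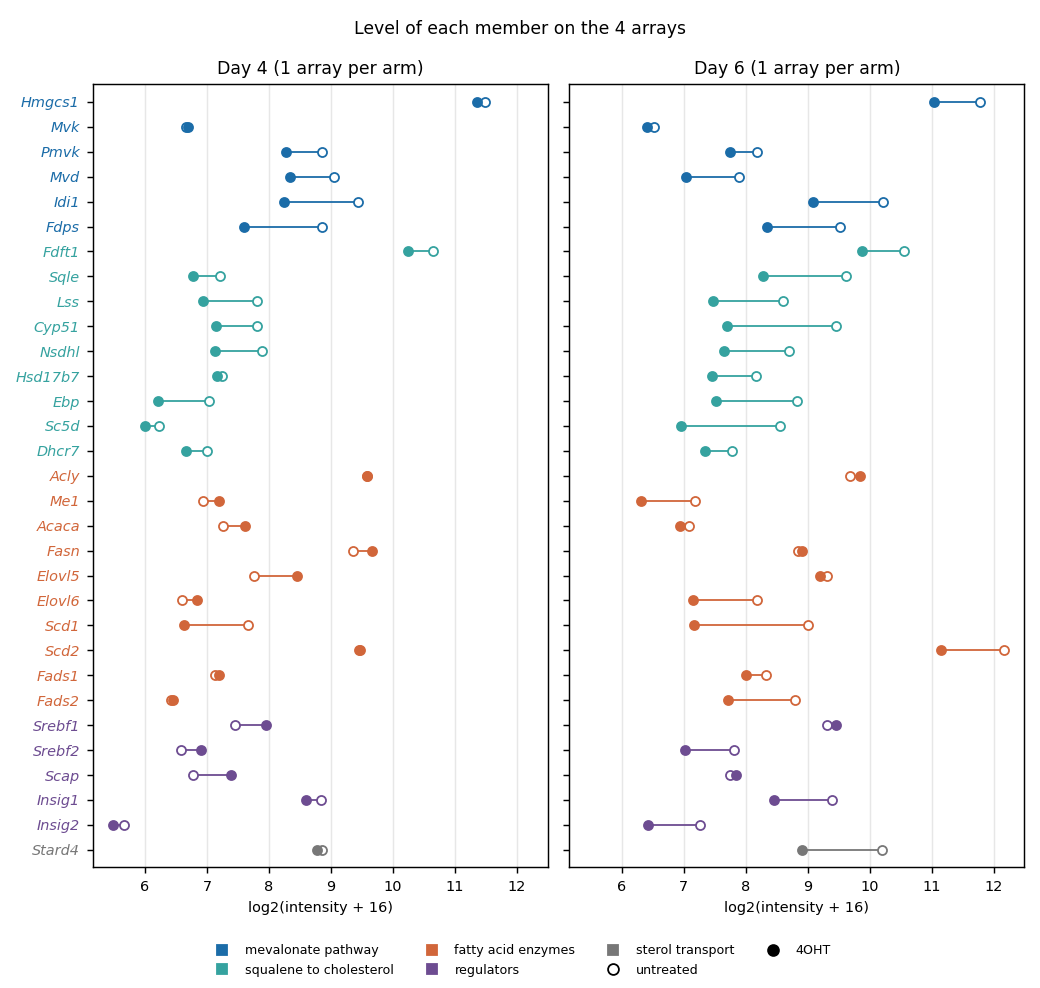
Intensity of each of the 31 measured genes on the 4 arrays (log axis), grouped by role. The untreated array of day 6 was the highest of the 4 for 21 of the 31 genes, among them Cyp51 (intensity 684) and Scd2 (intensity 4571).

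The medians of the branches lay further apart at day 4 than at day 6. At day 4, 14 of 15 sterol enzymes were lower with 4OHT by any amount and 1 of 10 fatty acid enzymes was, in a background of 43.2% of all genes. The median difference was -0.58 for sterol enzymes and 0.15 for fatty acid enzymes, with 0.06 over all genes. At day 6, 15 of 15 sterol enzymes and 8 of 10 fatty acid enzymes were lower (background 50.5%), with medians of -1.05 and -0.60 and -0.0044 over all genes. The fatty acid median thus lay above 0 at day 4 and below it at day 6, while that of the sterol enzymes of the set was below 0 on both days. The 7 measured sterol enzymes outside the set, described further on, had medians of 0.17 and -0.44, and so turned as the fatty acid median did. The fatty acid median at day 4 was close to 0 in other settings, at 0.0081 where all probe sets were averaged (0.0441 over all genes) and 0.0766 after quantile normalization (0.0177 over all genes). This difference between branches has no test here. The count of fatty acid enzymes lower at day 4 also moved with processing, to 5 of 10 after quantile normalization and 4 of 10 where all probe sets were averaged, while sterol enzymes stayed at 14 or 15 of 15 under each of the 7 alternatives tried.

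Differences of at least 2-fold became more frequent at day 6. At day 4, 3 of 31 genes were at least 2-fold lower (Idi1, Fdps and Scd1; background 1.22%) and 0 at least 2-fold higher (background 1%). At day 6, 13 of 31 were at least 2-fold lower (background 2.97%) and 0 at least 2-fold higher (background 0.879%). These 13 were 8 sterol enzymes (Idi1, Fdps, Sqle, Lss, Cyp51, Nsdhl, Ebp and Sc5d), 4 fatty acid enzymes (Elovl6, Scd1, Scd2 and Fads2) and Stard4. Scd2 (2.02-fold), Elovl6 (2.05-fold) and Nsdhl (2.07-fold) lay just past this size. With a pseudocount of 64 the count at day 6 was 8, and where all probe sets were averaged the count at day 4 was 1.

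**Figure D3:**
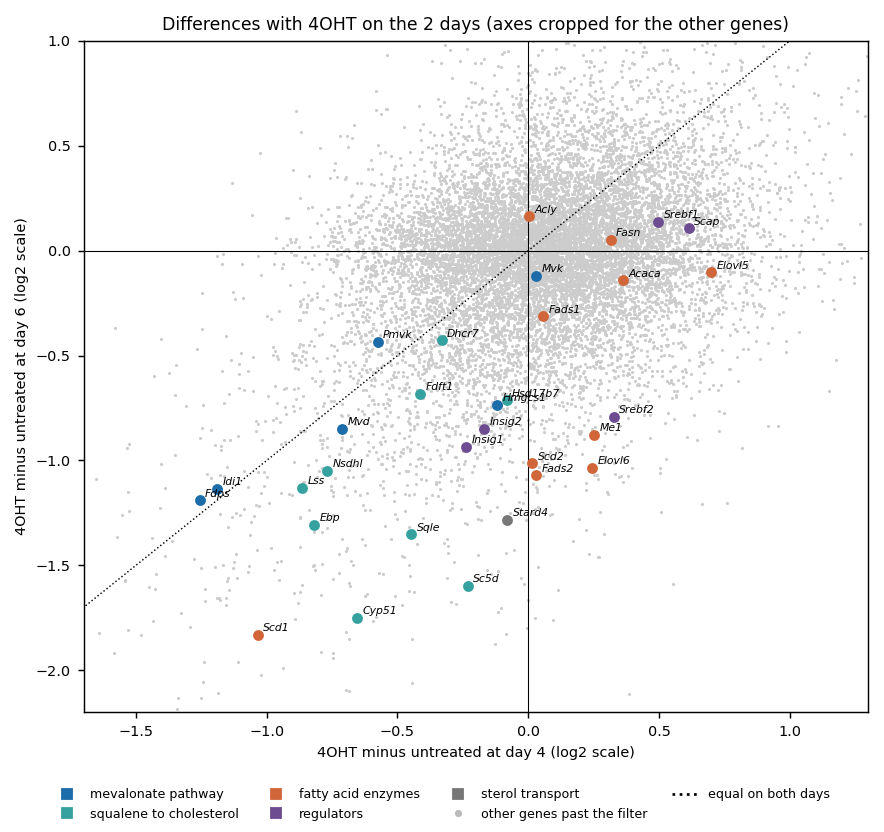
Difference between 4OHT and untreated organoids at day 4 (x axis) and at day 6 (y axis), both on the log2(intensity + 16) scale, each from 1 array against 1; coloured points are the 31 genes by role and grey points are the other genes past the level filter, with the axes limited to the range of most genes. Sterol enzymes other than Mvk (0.03 at day 4) lie in the lower left. The medians of all measured sterol enzymes are -0.58 and -1.05, and 9 of 10 fatty acid enzymes lie right of 0 at day 4.

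The difference was lower at day 6 than at day 4 for 27 of the 31 genes, against 57.7% of all genes. The 4 exceptions were Pmvk, Idi1, Fdps and Acly, so that the mevalonate enzymes had nearly the same medians on the 2 days (-0.64 and -0.79) and the squalene-to-cholesterol enzymes did not (-0.45 and -1.13). Idi1 and Fdps differed between the days by 0.05 and 0.07, Cyp51 by -1.09 and Sc5d by -1.37. No test of this difference can be made with 1 array per group. By brightest probe sets, 9 of the 31 genes were higher with 4OHT at day 4 and lower at day 6, near the 24.5% of all genes that were, and 7 of the 9 were fatty acid enzymes.

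Among the regulators, the factor genes and their partners did not share a direction. Srebf1 read 159 and 231 at day 4 and 622 and 686 at day 6, higher with 4OHT on each day by 0.50 and 0.14 (effect 0.32 ± 0.21, limma adjusted p = 0.576). Srebf2 read 79.5 and 104 and then 207 and 113, so that its sign turned between the days (0.33 and -0.79), and it had the smallest effect of the group (-0.23 ± 0.25, limma adjusted p = 0.776). Scap was higher on both days (0.61 and 0.11). The retention genes went the other way: Insig1, itself a known SREBP target, read 440 and 371 and then 657 and 336 (effect -0.59 ± 0.23, limma adjusted p = 0.227), and Insig2 read 34.3 and 28.8 and then 137 and 69.2. Stard4, a soluble sterol carrier, read 447 and 422 at day 4 and 1153 and 465 at day 6, so that the untreated array of day 6 stood above the other 3 (effect -0.68 ± 0.26, limma adjusted p = 0.209).

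Counted over every probe set, most of those for sterol enzymes read lower with 4OHT. For Hmgcs1 the probe sets other than the brightest changed the result. The 31 genes had 73 probe sets, of which 69 passed the level filter. Fitted each on its own, 13 of the 69 fell, against 0.981% of 23044 probe sets, and 0 rose, against 0.334% (limma). They were 11 of 33 probe sets of sterol enzymes, 1 of 24 of fatty acid enzymes, 0 of 9 of regulators and 1 of 3 of Stard4. The counts in this paragraph include the brightest probe set of each gene, so they partly repeat the main result. Among the 13 that fell are the brightest probe sets of Idi1, Fdps, Lss, Cyp51, Ebp and Scd1. Of the 33 sterol probe sets, 28 were lower with 4OHT at day 4 and 32 at day 6, against 44.4% and 52.9% of all probe sets tested. Of the 24 fatty acid probe sets, 10 were lower at day 4, a share like that of all probe sets, and 19 at day 6. In this fit Sqle (adjusted p = 0.121) and Nsdhl (adjusted p = 0.0611), each with 1 probe set past the filter, did not pass (limma).

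Hmgcs1 had 5 probe sets past the filter. The brightest, 1433443_a_at, read 2851, 2624, 3498 and 2096 on the untreated and 4OHT arrays of day 4 and then of day 6 and did not pass (effect -0.43 ± 0.22, limma adjusted p = 0.422 among genes). The next 3 read lower overall and differed more: 1433445_x_at read 1018, 426, 2695 and 1083 and fell by 1.26 ± 0.20 (limma adjusted p = 0.0115). The probe sets 1433444_at and 1433446_at fell by 1.10 and 1.23 (limma adjusted p = 0.023 and 0.013). Thus 3 of 5 probe sets placed Hmgcs1 with Idi1 and Fdps and the brightest did not. For Stard4, 1429239_a_at read 225, 120, 539 and 192 and fell by 1.12 ± 0.22 (limma adjusted p = 0.0309), whereas the brightest did not pass. For Lss, the dim 1420014_at went against the other 2 at day 4 (0.45). For Scd2, 1415824_at read 269, 180, 60.4 and 40.3 and was thus lower at day 6 than at day 4, against the brightest probe set, so the change of Scd2 over time depends on the probe set. In 11 of the 22 genes with more than 1 probe set past the filter, all of them had the direction of the brightest on both days.

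**Figure D4:**
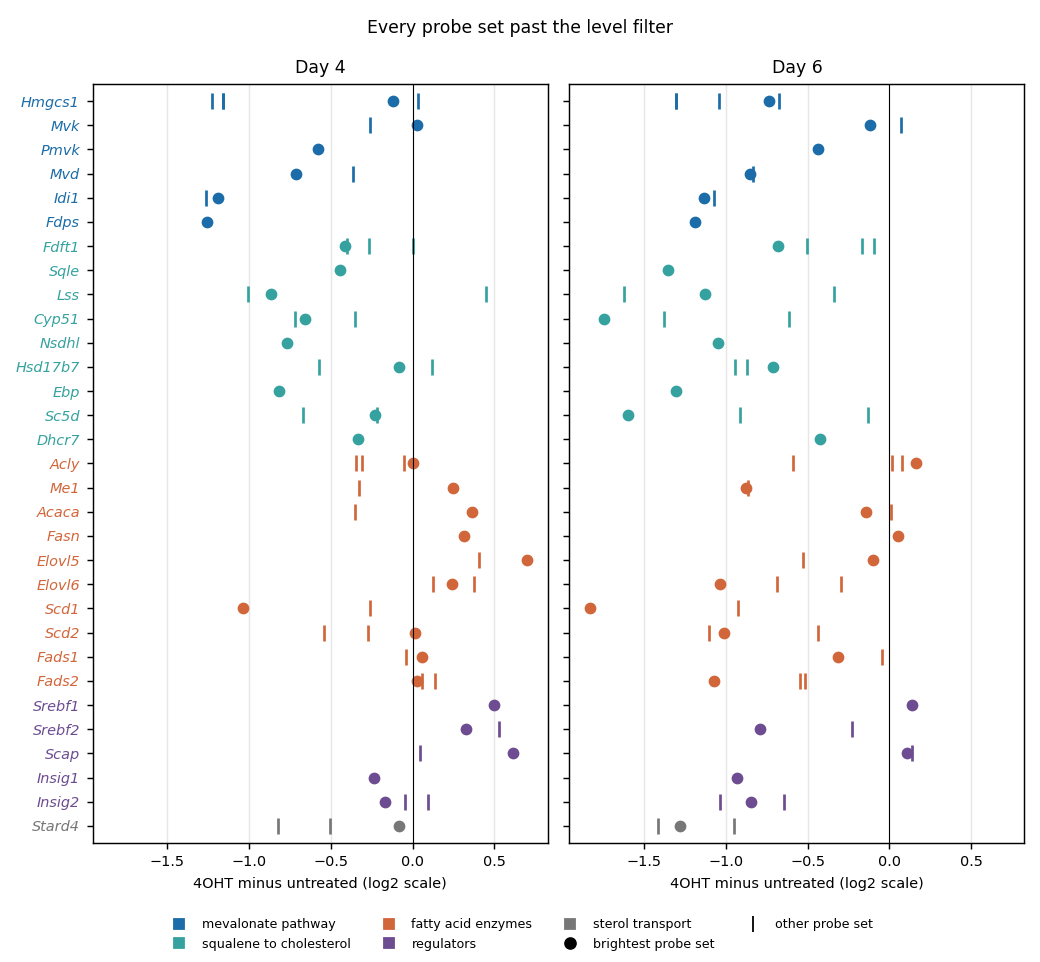
Difference between 4OHT and untreated organoids for each of the 69 probe sets of the 31 genes past the level filter, at day 4 and at day 6, on the log2(intensity + 16) scale, with the brightest probe set of each gene marked. For Hmgcs1 the brightest lies at -0.12 at day 4 while 3 others lie between -1.23 and -1.16.

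On the scale of the deposited values, most of the genes rose from day 4 to day 6, which quantile normalization did not keep. Over both arms 21 of 31 rose, against 35.1% of all genes, and 3 fell (Pmvk, Mvd and Fasn), against 18.8% (limma, adjusted p under 0.05). After quantile normalization 7 rose and 7 fell, and the calls over all genes moved from 4631 higher and 2474 lower to 2754 and 3220. The range from the 5th to the 95th percentile of log2 intensity was 5.77 and 5.90 on the arrays of day 4 and 6.89 and 6.73 on those of day 6. The 3'-to-5' signal difference for Actb was 2.96 and 3.91 at day 4 and 1.72 and 2.34 at day 6, untreated first. For Gapdh it was 1.42 and 2.29 and then 0.86 and 1.42. The spiked hybridization controls had log2 means of 12.3 and 12.0 and then 10.1 and 10.9. The part of these array differences in the change between the days was not tested. Quantile normalization also moved the all-gene medians of day 6 minus day 4 from 0.16 to -0.12 in untreated and from 0.04 to -0.15 in 4OHT organoids. In untreated organoids 14 of 31 genes were at least 2-fold higher at day 6 (background 24.1%), and in 4OHT organoids 5 were (background 16.4%). Mvd was the only gene at least 2-fold lower, in each arm (515 to 220 untreated, 308 to 115 with 4OHT; background 5.29% and 2.69%). The median difference between the days was 0.78 for sterol enzymes and 1.26 for fatty acid enzymes in untreated organoids, and 0.53 and 0.43 in 4OHT organoids, as deposited. Cyp51 was 1.64 higher at day 6 in untreated organoids and 0.55 higher with 4OHT, Stard4 1.34 and 0.13, and Elovl6 1.59 and 0.31. The untreated array of day 6 was the highest of the 4 for 21 of 31 genes (background 34.6%): 11 sterol enzymes, 6 fatty acid enzymes, 3 regulators and Stard4.

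**Figure D5:**
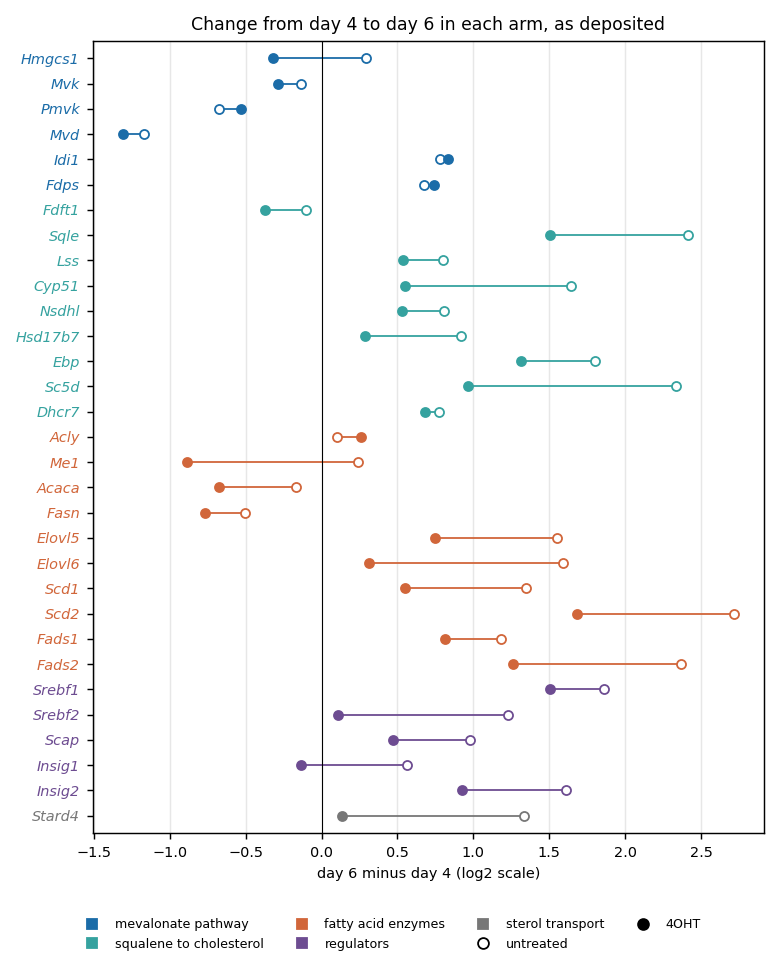
Difference between day 6 and day 4 for the 31 genes in untreated and in 4OHT organoids, on the log2(intensity + 16) scale, each from 1 array against 1 and as deposited. The untreated values have a median of 0.92 and the 4OHT values of 0.53, with Mvd below -1 in both.

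Some other genes of these pathways fell, against 2.25% of all genes, and 0 rose in any list, against 0.97% (limma). Among 7 measured sterol enzymes outside the set, Msmo1, a methyl oxidase of sterol demethylation, read 174 and 74.5 at day 4 and 940 and 321 at day 6 and fell by 1.29 ± 0.22 (limma adjusted p = 0.00247). The other 6 did not pass, and the list's medians were 0.17 at day 4 and -0.44 at day 6. At an unadjusted p under 0.05 (limma), 3 of the 7 were lower, against 7.47% of all genes, and 0 higher, against 6.44%. Of 13 genes of sterol uptake, export and esterification, 0 passed (limma; 1 lower and 1 higher at an unadjusted p under 0.05), with medians of -0.06 and -0.32. Of 18 tested genes of other fatty acid synthesis and lipid assembly, 3 fell and 0 rose, with medians of 0.06 and -0.25 (limma; 4 lower and 2 higher at an unadjusted p under 0.05). Dgat1 and Mogat2, which build triglycerides, fell by 1.08 ± 0.22 (limma adjusted p = 0.00954) and by 1.18 ± 0.25 (limma adjusted p = 0.015). Mid1ip1, a partner of acetyl-CoA carboxylase, fell by 0.92 ± 0.21 (limma adjusted p = 0.021). Of 8 genes of SREBP maturation, Erlin1, a membrane protein that binds the SREBP and Scap complex, fell by 0.82 ± 0.21 (limma adjusted p = 0.0416). The medians of that list were 0.13 and -0.42, with 2 lower and 2 higher at an unadjusted p under 0.05 (limma).

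Markers of absorptive cells moved with the sterol genes. Over all 13192 genes 2.25% fell and 0.97% rose (limma), which is the background for each count of markers below. Of 11 measured enterocyte markers 7 fell (Alpi, Apoa1, Apoa4, Fabp1, Slc2a2, Slc5a1 and Cyp3a11), and the list's median difference was -1.15 on the earlier day and -1.27 on the later. Their summed intensity was 4519 and 2091 at day 4 and 14420 and 7478 at day 6, untreated first, and so was highest on the untreated array of day 6. The sum over all 13192 genes was highest on that array too, at 2.43e+06 and 2.58e+06 and then 3.46e+06 and 3.23e+06. Of 6 stem cell markers 3 rose, and all 4 Paneth cell markers rose, with summed intensities for the latter of 28919 and 46449 at day 4 and 12486 and 43215 at day 6. The other secretory lists were mixed. Of 6 goblet cell markers 2 rose (Muc2 and Spdef) and 2 fell (Fcgbp and Zg16), and of 4 enteroendocrine markers 1 rose (Neurog3). Of 3 tuft cell markers 0 passed (limma; 0 at an unadjusted p under 0.05). General epithelial markers summed to 12648 and 15468 at day 4 and 21607 and 21681 at day 6, and 1 of 5 fell (Krt20, itself a marker of differentiated cells). The 3 measured adipocyte markers (Adipoq, Lep and Cidec) were under the level filter on all 4 arrays. Summed fibroblast markers were between 74.1 and 138, endothelial ones between 39.5 and 81.1 and immune ones between 42.6 and 87.4. None of the 9 tested genes of these 3 lists passed (limma; 0 at an unadjusted p under 0.05). The part of enterocyte markers, of the 3'-to-5' signal and of the hybridization controls in the sterol result was not tested.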

How the data were processed

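Intensity values on a linear scale were deposited, with 1 summarised value for each probe set on each array. The authors' background correction, normalization and summarisation are not given in the sources used here. Per the labels' protocols, 100 ng of total RNA went into a 3' labelling kit, so probe sets read mostly 3' ends. Of 45101 probe sets, 34945 named 1 gene in the platform's annotation, 932 several and 9211 none listed, and 64 were controls. These counts overlap, because controls were left out of the count with 1 gene but not of those with several or none. By identifier, 34741 matched a current gene record, with 0 symbols changed.

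Each of 18193 genes took its brightest probe set by mean log2(intensity + 16). The test was limma 3.58.1 (R 4.3.3; lmFit and eBayes) on 13192 genes, with 4OHT and day as terms and Benjamini-Hochberg adjustment over all of them. Its residual degrees of freedom were 1 and its prior ones 15.2 around a prior SD of 0.215. Errors in the text are its standard errors. Precision is limited by having 4 arrays. Python 3.11.15 with pandas 2.3.3, numpy 2.4.6 and matplotlib 3.10.9 handled tables and plots.

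The members, the pathway and marker lists and the tests were chosen with earlier results of these data known. Named genes were all 32 members by role, with values on every array for those past the test and for the smallest effect of each role, and other pathway genes that passed. Further values on every array, probe sets and the genes named among the markers were picked with their values in view. Alternatives changed the pseudocount, the level filter, the choice of probe sets, centring, quantile normalization, the fold threshold and the term for day.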

Additional observations from a re-analysis of the deposited data

Results flagged for a closer look

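By the brightest probe set of each gene, in 9 of the 31 genes the untreated and 4OHT arrays differed one way at day 4 and the other way at day 6. The difference between the days was not tested, since each effect sets 1 array against 1. The 4OHT difference at day 6 minus that at day 4 was -0.15 for Mvk, -0.51 for Acaca and -0.37 for Fads1. It was -0.80 for Elovl5, -1.13 for Me1 and -1.28 for Elovl6. It was -1.03 for Scd2, -1.10 for Fads2 and -1.12 for Srebf2. By that probe set all 9 were higher with 4OHT at day 4 and lower at day 6, as were 24.5% of all genes, and 7 of the 9 are fatty acid enzymes. Other probe sets past the level filter did not give this turn for 5 of them. At day 4 they were lower with 4OHT for Me1 (-0.33), Scd2 (-0.27 and -0.54), Acaca (-0.35), Fads1 (-0.04) and Mvk (-0.26). For Elovl5, Elovl6, Fads2 and Srebf2 every probe set past the filter was higher at day 4 and lower at day 6.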

How the results depend on the processing

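The 8 genes called lower with 4OHT became 0 with a pseudocount of 1, a pseudocount of 64, no level filter and no day term, while the other 7 alternatives called 6 to 10 (limma), and 0 were called higher under each of the 11. Of those 7, the brightest probe set by linear mean (9) and every probe set fitted on its own (8) were chosen after seeing the data. Calls over all genes also went down under the 4 settings, from 425 to 47, 0, 0 and 0, and to 245 with the level filter on the mean; the cause was not tested. Calls by day went from 24 to 14 after quantile normalization. Genes at least 2-fold lower went at day 4 from 3 to 1 where all probe sets were averaged, to 8 at 1.5-fold and to 0 at 3-fold, and at day 6 from 13 to 8 with a pseudocount of 64, to 21 at 1.5-fold and to 3 at 3-fold. The branch medians moved by less than 0.215 under every alternative run, a bound wider than the fatty acid median at day 4 itself (0.15), which ranged down to 0.0081. Effects that changed sign were Acly where all probe sets were averaged (-0.0885) and without _x_at and _s_at probe sets (-0.115), Acaca where all probe sets were averaged (-0.0298) and Elovl5 without _x_at and _s_at probe sets (-0.0598). No paired analysis was possible because each group is 1 array and the labels give no replicate numbers, other than the pairing by day that the term for day already makes in the test; leaving out an array leaves no residual degrees of freedom, and the values for 1 day are those in the text.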
